A study of Mus musculus with 27 samples.

Results

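Hepatic stellate cells are the vitamin A-storing mesenchymal cells of the liver sinusoid, and 9 of the genes that mark them (Lrat, Reln, Dcn, Colec11, Ecm1, Rgs5, Pdgfrb, Ngfr and Des) were followed across the zones of the mouse liver lobule before and during pregnancy. The genes were given as a list of symbols, each of which matched 1 of the 21823 protein-coding genes in the expression table. All 9 reached an FPKM (mapped fragments per length of transcript and per size of the library) of at least 1 in at least 3 libraries, a filter that 12952 genes passed. Their values are from whole tissue, so that the number of stellate cells, the RNA per stellate cell and RNA of these genes from other cells cannot be told apart.

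RNA was sequenced from liver areas cut from frozen sections by laser microdissection. Every mouse was a wild-type (WT) female of the C57BL/6 strain (C57BL/6N in the study's methods) with no other allele or agent. The mice were non-pregnant (NP), at day 8 post coitum (dpc8) or at day 16 post coitum (dpc16). Zones 1, 2 and 3, which run from the portal to the central side of the lobule, were collected at each stage with 3 replicates, which gave 9 groups and 27 libraries. The labels do not tie libraries to mice, and the study's methods say in general terms that experiments were repeated in different mice without saying which mouse gave which library. The p-values therefore measure the spread between these samples, which may be technical in part. Areas of zones 1, 2 and 3 with the same replicate number may come from the same liver, which the test used here does not take into account.

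Stellate cells lie in the space between hepatocytes and sinusoidal endothelium, where they store retinyl esters, secrete matrix and growth factors, and respond to platelet-derived growth factor. In injured liver they lose their retinoid stores and turn into contractile, collagen-producing myofibroblasts. Stellate cells near the portal tract and near the central vein are known to differ in the genes they express, with Ngfr on the portal side and Rspo3 on the central side among the known markers.

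Estimated depth ran from 7.53 to 33.35 M reads a library, where M is mega, and from 10581 to 11997 genes had an FPKM of at least 1. Although every mouse was labelled female, the sum over the Y-linked genes Uty, Kdm5d, Ddx3y and Eif2s3y was 7.92 to 23.2 FPKM in 6 libraries and at most 2.97 in the other 21. In NP these were replicate 1 of zone 1 and replicate 2 of zone 3, at dpc8 they were replicate 1 of zone 1 and replicate 2 of zone 2, and at dpc16 they were replicate 3 of both zones 2 and 3. Below, libraries with Y-linked RNA, or Y-linked libraries, means these 6, with a sum over 5 FPKM. Some of the others held less, such as dpc16 zone 1 replicate 3 (2.97 FPKM) and dpc8 zone 1 replicate 2 (2.81 FPKM). Fits without the 6 are thus not free of Y-linked RNA. In the same 6 libraries the mean log2(FPKM + 1) over 10 smooth muscle genes was 4.307 to 5.799, against 0.700 to 3.57 in the others, and over 14 genes of activated stellate cells and myofibroblasts it was 5.47 to 7.44 against 1.43 to 4.62. Acta2, smooth muscle actin, was at 310.0 to 1857 FPKM in the 6 libraries and at 0.0331 to 143 in the 21 others. The mean over 6 hepatocyte genes was 9.74 to 10.4 in the 6 libraries and 10.2 to 12.1 in the others. The members' tests were therefore also fitted without them, and the values are given beside the calls of the members. The calls of list genes given here were fitted without them too, an alternative added after the data were seen, and were kept except where stated. The part of these libraries in the results beyond this was not tested.

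Levels differed widely among the 9 genes. Per length, the median over the 27 libraries was highest for the matrix genes Ecm1 (111 FPKM) and Dcn (75.9 FPKM). The collectin Colec11 (19.9 FPKM), the secreted glycoprotein Reln (18.1 FPKM) and Rgs5 (11.2 FPKM) followed. Lrat (4.79 FPKM), Des (2.66 FPKM), Pdgfrb (2.37 FPKM) and Ngfr (1.35 FPKM) were the least abundant. The depth behind these values was lowest for Ngfr, with an estimated 2 to 355 reads per library, with a median of 79, and highest by the median for Reln (3295, 847 to 7294) and Ecm1 (3084, 890 to 10538). None of the 9 was at 0 in any library, and Lrat and Des reached 1 FPKM in 25 libraries, Ngfr in 16 and the other 6 genes in all 27.

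**Figure D1:**
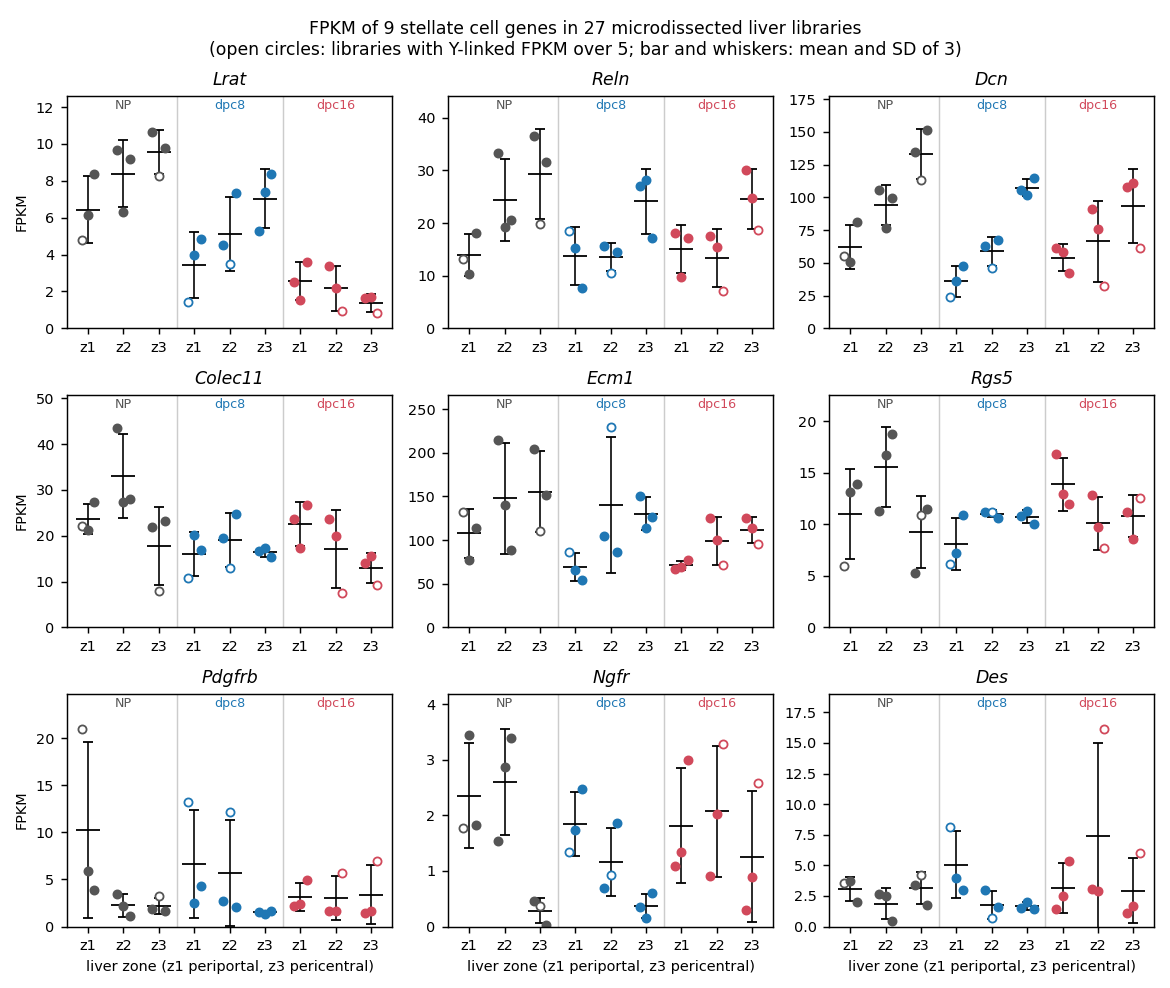
FPKM of each of the 9 genes (vertical axes, linear and starting at 0) in the 3 libraries of each stage and zone. Filled circles are libraries without and open circles libraries with a Y-linked sum over 5 FPKM; bars and whiskers are the mean and SD of the 3 libraries. Dcn and Reln sat highest in zone 3, Ngfr sat lowest in zone 3 of NP and dpc8, and Lrat sat lowest at dpc16, where no library exceeded 3.62 FPKM.

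Lrat encodes lecithin retinol acyltransferase, the enzyme that esterifies retinol for storage. It is on chr3:82892579-82903973 (minus strand, mm10). In NP livers Lrat was at 4.79, 6.13 and 8.37 FPKM in zone 1, 9.69, 6.30 and 9.18 in zone 2 and 10.7, 8.27 and 9.75 in zone 3. At dpc8 Lrat was at 1.42, 4.003 and 4.85 FPKM in zone 1, 4.51, 3.51 and 7.36 in zone 2 and 5.26, 7.41 and 8.38 in zone 3. At dpc16 Lrat was at 2.52, 1.55 and 3.62 FPKM in zone 1, 3.37, 2.21 and 0.925 in zone 2 and 1.63, 1.72 and 0.809 in zone 3. The NP values were all above the dpc16 values in each of the 3 zones, and dpc8 overlapped with NP in each zone and with dpc16 in zone 1. Values here and below are in the order of replicates 1, 2 and 3.

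At dpc16 Lrat had fallen against NP in zones 2 and 3. In zone 3 its mean went from 9.56 ± 1.21 (SD, n = 3) to 1.39 ± 0.502 FPKM (SD, n = 3), which is 6.90-fold lower, with a log2 difference of -2.16 ± 0.35 (SE) in FPKM + 1 and an adjusted p of 0.00116. In zone 2 it went from 8.39 ± 1.83 to 2.17 ± 1.22 FPKM, with a log2 difference of -1.63 ± 0.35 and an adjusted p of 0.0111. The zone 1 difference of -1.08 ± 0.35 did not pass (adjusted p = 0.163), although the groups did not overlap there either. Against dpc8, Lrat at dpc16 was lower in zone 3, with a log2 difference of -1.75 ± 0.35 and an adjusted p of 0.0104, and the differences of -0.98 in zone 2 (adjusted p = 0.203) and -0.26 in zone 1 (adjusted p = 0.791) did not pass. Both comparisons share the dpc16 libraries.

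The Lrat difference in zone 3 was -2.07 without the Y-linked libraries (adjusted p = 0.00135), and the call was kept whichever library was left out. In zone 2 the call was kept without the Y-linked libraries (-1.31, adjusted p = 0.0166) but was lost when dpc16 zone 2 replicate 3 alone was left out (adjusted p = 0.0677) or NP zone 2 replicate 3 (adjusted p = 0.0523). Against dpc8 in zone 3 the difference was -1.56 without the Y-linked libraries (adjusted p = 0.00563), and the call was lost without dpc8 zone 3 replicate 2 (adjusted p = 0.0563), dpc8 zone 3 replicate 3 (adjusted p = 0.0728) or dpc16 zone 3 replicate 3 (adjusted p = 0.0532). In zone 1, the difference between dpc16 and NP passed without the Y-linked libraries (-1.24, adjusted p = 0.0311). The hepatocyte gene Alb had group means of 106500 to 172900 FPKM at dpc16 and of 26480 to 59220 in NP, and the part of this in the Lrat difference was not tested. With quantile normalization the zone 3 difference was -2.11 (adjusted p = 0.0173) and the zone 2 difference -1.60 (adjusted p = 0.0617).

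Whether the change from NP to dpc16 differed between zones was tested by an interaction term. The change in zone 1 minus that in zone 3 was 1.09 ± 0.50 (adjusted p = 0.993), and for zones 1 and 2 and for zones 2 and 3 it was 0.55 ± 0.50 (adjusted p = 0.782) and 0.54 ± 0.50 (adjusted p = 1).

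From the highest to the lowest group mean, Lrat ran NP zone 3, NP zone 2, dpc8 zone 3, NP zone 1, dpc8 zone 2, dpc8 zone 1, dpc16 zone 1, dpc16 zone 2 and dpc16 zone 3. None of the 8 neighbouring pairs in this order differed beyond the spread, taken as means ± SD that do not overlap. By their means, zone 3 was the highest of the zones in NP and the lowest at dpc16.

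The 250 bases before the Lrat start site are shown because Lrat was the gene that changed with stage. They lie at chr3:82903975-82904224 (minus strand, GRCm38.p6, from RefSeq), with motif matches in capitals.

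Lrat: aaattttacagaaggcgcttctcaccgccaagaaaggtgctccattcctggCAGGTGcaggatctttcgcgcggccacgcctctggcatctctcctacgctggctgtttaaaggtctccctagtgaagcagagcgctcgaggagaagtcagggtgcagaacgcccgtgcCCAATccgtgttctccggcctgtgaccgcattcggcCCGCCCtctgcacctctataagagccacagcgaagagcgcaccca

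The motifs searched on both strands were the TATA box TATAAA, the CAAT box CCAAT, the GC box GGGCGG, the E-box CANNTG, the GATA motif AGATAA and the CArG box, and none of the matches printed here overlap. The Lrat window holds 1 CANNTG match at -199 to -194 from the start site, 1 CCAAT match at -81 to -77 and 1 GGGCGG match at -45 to -40, the last read on the opposite strand. Among 32851 windows of this length, 66.2% hold the E-box, 33.8% the CAAT box, 32.7% the GC box, 12.4% the TATA box, 9.99% the GATA motif and 1.47% the CArG box. Windows of 7 of the 9 genes were searched, and none of the 7 holds a CArG box.

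Dcn encodes decorin, a small leucine-rich proteoglycan that binds collagen fibrils and growth factors, and is on chr10:97479609-97518143 (plus strand). In NP livers Dcn measured 55.1, 50.6 and 81.5 FPKM in zone 1, 106, 76.8 and 99.9 in zone 2 and 134, 114 and 152 in zone 3. At dpc8 Dcn measured 23.9, 36.2 and 47.6 FPKM in zone 1, 62.7, 46.2 and 67.5 in zone 2 and 105, 102 and 115 in zone 3. At dpc16 Dcn measured 61.5, 58.2 and 42.1 FPKM in zone 1, 91.3, 75.9 and 32.1 in zone 2 and 108, 111 and 61.1 in zone 3. Within NP and dpc8 all zone 3 values were above all zone 1 values, and at dpc16 only the zone 3 library with Y-linked RNA was within the zone 1 range. The level went up from zone 1 through zone 2 to zone 3 in the means of each stage.

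Dcn was the member with the clearest difference between zones. Over the mean of the 3 stages it was lower in zone 1 than in zone 3, with a log2 difference of -1.15 ± 0.19 in FPKM + 1 and an adjusted p of 0.000262, and a mean FPKM of 50.7 against 111. Within dpc8 the mean was 35.9 ± 11.8 FPKM (SD, n = 3) in zone 1 and 107 ± 6.62 (SD, n = 3) in zone 3, a 2.995-fold difference (log2 difference -1.61 ± 0.33, adjusted p = 0.00812). In NP (-1.10 ± 0.33, adjusted p = 0.143) and at dpc16 (-0.75 ± 0.33, adjusted p = 0.511) the difference had the same sign and did not pass.

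Without the libraries with Y-linked RNA the zone difference of Dcn was -1.17 over the mean of stages (adjusted p = 1.11e-05), and within each stage it passed, at -1.14 in NP (adjusted p = 0.017), -1.35 at dpc8 (adjusted p = 0.00176) and -1.03 at dpc16 (adjusted p = 0.0139). With dpc8 zone 1 replicate 1 alone left out, the dpc8 difference was -1.35 and did not pass (adjusted p = 0.0741). Zone 2 was between the other zones. Its log2 difference from zone 3 was -0.65 ± 0.19 (adjusted p = 0.0963), and zone 1 minus zone 2 was -0.51 ± 0.19 (adjusted p = 0.455). Both passed without the Y-linked libraries, at -0.57 (adjusted p = 0.0211) and -0.60 (adjusted p = 0.0251).

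For Dcn the highest group mean was in NP zone 3, followed by dpc8 zone 3, NP zone 2, dpc16 zone 3, dpc16 zone 2, NP zone 1, dpc8 zone 2, dpc16 zone 1 and dpc8 zone 1. Only NP zone 3 and dpc8 zone 3 were apart by more than their SDs among these neighbours, and their single values overlapped. No stage comparison of Dcn passed the test, and the largest was dpc8 minus NP in zone 1 (-0.80 ± 0.33, adjusted p = 1).

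Reln encodes reelin, a large secreted glycoprotein best known for its role in neuronal migration and used in liver as a stellate cell marker. It is on chr5:21884454-22344702 (minus strand). In NP livers Reln was at 13.2, 10.3 and 18.2 FPKM in zone 1, 33.3, 19.2 and 20.6 in zone 2 and 36.6, 19.8 and 31.5 in zone 3. At dpc8 Reln was at 18.5, 15.2 and 7.75 FPKM in zone 1, 15.6, 10.6 and 14.5 in zone 2 and 27.03, 28.2 and 17.1 in zone 3. At dpc16 Reln was at 18.1, 9.78 and 17.2 FPKM in zone 1, 17.5, 15.4 and 7.02 in zone 2 and 30.1, 24.8 and 18.7 in zone 3. Zone 3 was above zone 1 without overlap in NP and at dpc16, while at dpc8 zone 3 replicate 3 lay within the zone 1 range.

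Reln was lower in zone 1 than in zone 3 over the mean of stages, with a log2 difference of -0.84 ± 0.21 in FPKM + 1, an adjusted p of 0.015 and a mean of 14.2 against 25.98 FPKM. Zone 2, with a mean of 17.1 FPKM, was nearer to zone 1 (zone 2 minus zone 3 -0.64 ± 0.21, adjusted p = 0.165; zone 1 minus zone 2 -0.20 ± 0.21, adjusted p = 1). Within stages the difference between zones 1 and 3 was -1.02 in NP (adjusted p = 0.305), -0.81 at dpc8 (adjusted p = 0.357) and -0.69 at dpc16 (adjusted p = 0.708). The value over the mean of stages was -1.05 without the Y-linked libraries (adjusted p = 0.00252), and it passed whichever library was left out. Within stages Reln passed in none without them (adjusted p = 0.135, 0.136 and 0.292 for NP, dpc8 and dpc16).

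By group mean Reln ran NP zone 3, dpc16 zone 3, NP zone 2, dpc8 zone 3, dpc16 zone 1, NP zone 1, dpc8 zone 1, dpc8 zone 2 and dpc16 zone 2, with no neighbours apart by more than their SDs. None of its stage comparisons passed. The largest was dpc16 minus NP in zone 2, at -0.87 ± 0.36 (adjusted p = 0.213), and dpc8 minus NP in zone 2 was -0.77 ± 0.36 (adjusted p = 0.971), with no overlap between the groups in either. In zone 3 dpc16 minus NP was -0.23 ± 0.36, with a 95% interval of -0.97 to 0.52.

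Ecm1 encodes extracellular matrix protein 1, a secreted glycoprotein, and is on chr3:95734147-95739569 (minus strand). In NP livers Ecm1 measured 133, 77.2 and 114 FPKM in zone 1, 215, 140 and 88.7 in zone 2 and 204, 111 and 152 in zone 3. At dpc8 Ecm1 measured 86.2, 65.3 and 54.6 FPKM in zone 1, 105, 229 and 86.7 in zone 2 and 151, 114 and 126 in zone 3. At dpc16 Ecm1 measured 66.9, 69.5 and 76.8 FPKM in zone 1, 126, 100 and 71.1 in zone 2 and 125, 113 and 95.5 in zone 3. At dpc8 and dpc16 all zone 3 values were above all zone 1 values, and in NP they overlapped. The highest value of all, in zone 2 at dpc8, came from a library with Y-linked RNA.

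Ecm1 was lower in zone 1 than in zone 3 over the mean of stages, at 82.5 against 132 FPKM (log2 difference -0.69 ± 0.20, adjusted p = 0.0402). This was near the threshold. The call was kept in 4 of 18 fits that left out a library, those without replicate 1 of NP zone 1, replicate 2 of NP zone 3, replicate 1 of dpc8 zone 1 or replicate 3 of dpc16 zone 3, and was lost in the other 14, with adjusted p from 0.0258 to 0.0933 over the 18. The 4 libraries are all among the 6 with Y-linked RNA, and without all 6 the difference was -0.92 (adjusted p = 0.00181). With quantile normalization it was -0.62 and did not pass (adjusted p = 0.0854). Within dpc8 it passed only without the 6 libraries and with array weights, at -1.10 (adjusted p = 0.0449) in the former. Zone 2, at 129 FPKM, was nearer to zone 3 (zone 2 minus zone 3 -0.11 ± 0.20, adjusted p = 0.94; zone 1 minus zone 2 -0.58 ± 0.20, adjusted p = 0.35). The order of group means was NP zone 3, NP zone 2, dpc8 zone 2, dpc8 zone 3, dpc16 zone 3, NP zone 1, dpc16 zone 2, dpc16 zone 1 and dpc8 zone 1, and no neighbours were apart by more than their SDs.

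The windows before Reln and Ecm1 are shown because both genes were higher in zone 3. The Reln window is at chr5:22344706-22344955 and the Ecm1 window at chr3:95739570-95739819, both on the minus strand of GRCm38.p6, with motif matches in capitals.

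Reln: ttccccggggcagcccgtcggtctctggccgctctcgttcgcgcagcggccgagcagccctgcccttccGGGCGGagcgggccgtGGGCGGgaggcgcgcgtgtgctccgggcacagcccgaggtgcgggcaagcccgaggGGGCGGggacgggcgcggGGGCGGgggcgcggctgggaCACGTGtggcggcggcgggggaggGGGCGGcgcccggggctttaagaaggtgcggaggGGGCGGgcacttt

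Ecm1: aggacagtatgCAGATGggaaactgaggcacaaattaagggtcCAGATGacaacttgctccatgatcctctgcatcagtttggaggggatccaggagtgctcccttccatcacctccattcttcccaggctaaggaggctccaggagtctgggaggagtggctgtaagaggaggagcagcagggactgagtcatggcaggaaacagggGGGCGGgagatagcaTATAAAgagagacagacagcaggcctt

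The Reln window is 80% G and C and holds 6 GGGCGG matches and 1 CANNTG match (CACGTG, at -71 to -66). The Ecm1 window is 54.0% G and C and holds a TATAAA match at -27 to -22, 1 GGGCGG match and 2 CANNTG matches. CANNTG is in both, and it is also the motif found in most windows of all genes.

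Colec11 encodes collectin-11, a secreted lectin that starts the lectin pathway of complement, and is on chr12:28594173-28623377 (minus strand). Over the 27 libraries it ran from 7.43 to 43.5 FPKM, with a median of 21.2 in zone 1, 23.7 in zone 2 and 15.6 in zone 3. The lowest value was in dpc16 zone 2 replicate 3 and the highest in NP zone 2 replicate 1. Its zone 1 minus zone 3 difference over the mean of stages was 0.40 ± 0.22 (95% interval -0.06 to 0.86, adjusted p = 0.421), which is the opposite sign to Dcn, Reln and Ecm1. No comparison of Colec11 passed, with or without the Y-linked libraries, and the largest stage difference was dpc16 minus NP in zone 2, at -1.03 ± 0.38 (adjusted p = 0.162). In the 6 libraries with Y-linked RNA its median was 10.02 FPKM against 21.2 in the others. Its group means ran from NP zone 2, the highest, through NP zone 1, dpc16 zone 1, dpc8 zone 2, NP zone 3, dpc16 zone 2, dpc8 zone 3 and dpc8 zone 1 to dpc16 zone 3, with no neighbours apart by more than their SDs.

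The ratio of Dcn to Colec11 within a library does not depend on how the library was scaled. It was 1.58 to 3.36 in zone 1, 2.43 to 4.33 in zone 2 and 5.92 to 14.2 in zone 3. Zone 3 therefore did not overlap with the other zones in any library, the 6 with Y-linked RNA included, and this pair was chosen after the values of the single genes were seen.

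**Figure D2:**
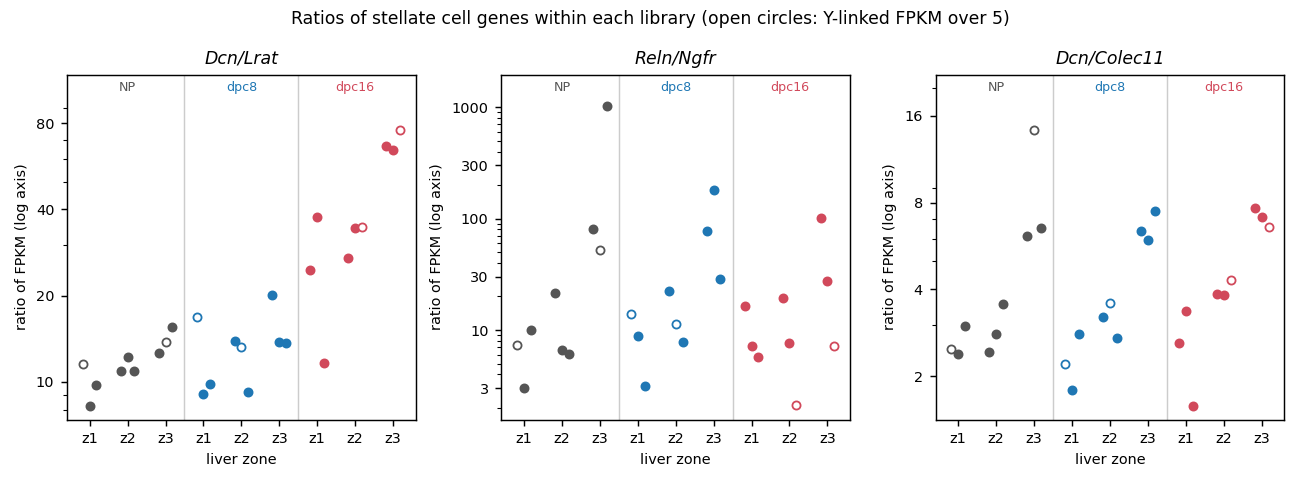
Ratios of FPKM within each library (vertical axes, logarithmic) for Dcn over Lrat, Reln over Ngfr and Dcn over Colec11, by stage and zone; open circles are the 6 libraries with a Y-linked sum over 5 FPKM. Dcn over Lrat was 64.5 to 75.6 in the 3 libraries of dpc16 zone 3 and at most 20.1 in NP and dpc8, and Dcn over Colec11 was at least 5.92 in zone 3 and at most 4.33 elsewhere.

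The ratio of Dcn to Lrat sets a matrix gene against the retinoid enzyme within a library, as whole-tissue FPKM, and was also chosen with the values known. It was 8.24 to 15.6 in the NP libraries, 9.04 to 20.1 at dpc8 and 11.6 to 75.6 at dpc16. At dpc16 it was 11.6 to 37.7 in zone 1, 27.1 to 34.8 in zone 2 and 64.5 to 75.6 in zone 3, so the zones were in that order by their medians of 24.5, 34.4 and 66.4. Reln over Lrat was 1.68 to 3.44 in NP, 1.60 to 13 at dpc8 and 4.76 to 23.2 at dpc16, so that dpc8 overlapped with both and NP did not overlap with dpc16. Dcn over Reln, which compares genes that both were higher in zone 3, had medians of 4.18, 4.58 and 3.90 in zones 1, 2 and 3.

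Ngfr encodes the p75 neurotrophin receptor, which binds nerve growth factor and the other neurotrophins, and is on chr11:95568818-95587735 (minus strand). In NP livers Ngfr was at 1.78, 3.45 and 1.83 FPKM in zone 1, 1.54, 2.87 and 3.40 in zone 2 and 0.455, 0.376 and 0.0306 in zone 3. At dpc8 Ngfr was at 1.34, 1.74 and 2.47 FPKM in zone 1, 0.696, 0.934 and 1.86 in zone 2 and 0.352, 0.157 and 0.599 in zone 3. At dpc16 Ngfr was at 1.09, 1.35 and 3.004 FPKM in zone 1, 0.913, 2.02 and 3.28 in zone 2 and 0.297, 0.899 and 2.58 in zone 3. In NP and dpc8 each zone 3 value was below each zone 1 and zone 2 value. At dpc16 the zones overlapped, and the highest zone 3 value was in the library with Y-linked RNA. The zone 3 values rest on few reads, an estimated 2 to 24 per library in NP, 9 to 26 at dpc8 and 13 to 191 at dpc16.

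Ngfr was higher in zone 1 than in zone 3 over the mean of stages, at 2.01 against 0.639 FPKM (log2 difference 0.93 ± 0.22 in FPKM + 1, adjusted p = 0.00895), and this passed whichever library was left out. Ngfr reached 1 FPKM in 9 libraries of zone 1, 6 of zone 2 and 1 of zone 3, and with no filter on low values the adjusted p was 0.01. It was also higher in zone 2, at 1.95 FPKM, than in zone 3 (0.86 ± 0.22, adjusted p = 0.0356), but 12 of 18 fits that left out a library lost this call, with adjusted p from 0.00872 to 0.0987. The call was kept without replicate 1 of NP zone 2, of NP zone 3, of dpc8 zone 2 or of dpc16 zone 2, or without replicate 3 of dpc8 zone 3 or of dpc16 zone 3, and lost without each of the others. Zones 1 and 2 differed by 0.07 ± 0.22 (95% interval -0.38 to 0.52, adjusted p = 1).

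Without the libraries with Y-linked RNA, Ngfr was higher by 1.17 in zone 1 (adjusted p = 0.00225) and by 0.94 in zone 2 (adjusted p = 0.024) than in zone 3. Within stages zone 1 minus zone 3 was 1.36 in NP (adjusted p = 0.0916), 1.05 at dpc8 (adjusted p = 0.22) and 0.39 at dpc16 (adjusted p = 0.943), and none passed without those libraries (adjusted p from 0.0734 to 0.455). The scale of FPKM + 1 understates these differences, since with a pseudocount of 0.1 the value over the mean of stages was 1.92. By group mean Ngfr ran NP zone 2, NP zone 1, dpc16 zone 2, dpc8 zone 1, dpc16 zone 1, dpc16 zone 3, dpc8 zone 2, dpc8 zone 3 and NP zone 3, with no neighbours apart by more than their SDs.

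The window before Ngfr is shown because Ngfr was the member higher on the portal side. It is at chr11:95587699-95587948 (minus strand, GRCm38.p6), with motif matches in capitals.

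Ngfr: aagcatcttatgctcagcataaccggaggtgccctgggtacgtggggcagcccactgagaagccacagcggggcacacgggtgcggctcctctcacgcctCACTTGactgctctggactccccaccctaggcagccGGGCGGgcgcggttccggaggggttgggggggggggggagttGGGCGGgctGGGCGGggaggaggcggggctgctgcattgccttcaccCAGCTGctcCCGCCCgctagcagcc

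The Ngfr window is 70.4% G and C and holds 4 GGGCGG matches and 2 CANNTG matches, and no TATA box, CAAT box or GATA motif. GC box matches are also in the windows of Lrat, Reln, Ecm1 and Des, and none was found in those of Colec11 and Rgs5. A link between the motif and zone or stage was not tested.

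The ratio of Reln to Ngfr was chosen for the opposite zone patterns of these genes, so a difference between zones is built into it. It was 2.99 to 16.6 in zone 1, 2.14 to 22.4 in zone 2 and 7.26 to 1030 in zone 3, with medians of 7.40, 7.83 and 76.8, and the highest value rests on an estimated 2 reads of Ngfr. In NP and at dpc8 zone 3 did not overlap with the other zones, with a lowest value of 28.5. At dpc16 zone 3 ran from 7.26 to 101, and its lowest value was in the library with Y-linked RNA.

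**Figure D3:**
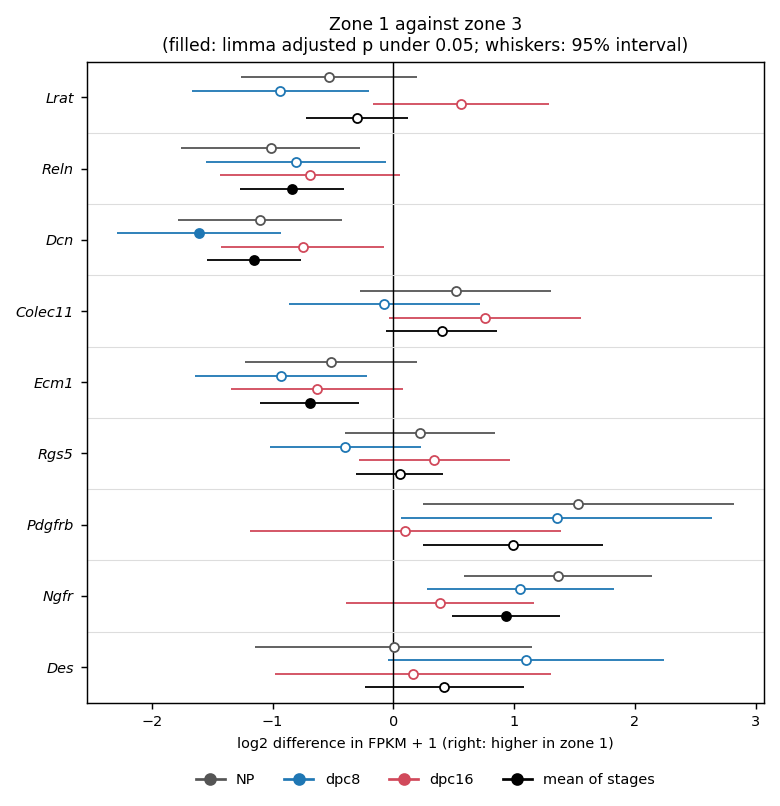
Log2 difference in FPKM + 1 between zone 1 and zone 3 for each gene (horizontal axis; positive is higher in zone 1), within NP, dpc8 and dpc16 (n = 3 and 3 libraries each) and over the mean of stages. Points are limma estimates, whiskers are 95% intervals, and filled points passed an adjusted p of 0.05. Dcn, Reln and Ecm1 lie to the left and Ngfr and Pdgfrb to the right in all 4 estimates, with Dcn at -1.15, Ngfr at 0.93 and Pdgfrb, which did not pass, at 0.99 over the mean of stages.

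Pdgfrb encodes the beta receptor for platelet-derived growth factor, a growth factor to which stellate cells and pericytes respond, and is on chr18:61045150-61085061 (plus strand). In NP livers Pdgfrb measured 21.01, 5.95 and 3.90 FPKM in zone 1, 3.49, 2.22 and 1.07 in zone 2 and 1.84, 3.20 and 1.62 in zone 3. At dpc8 Pdgfrb measured 13.2, 2.46 and 4.26 FPKM in zone 1, 2.76, 12.2 and 2.08 in zone 2 and 1.52, 1.36 and 1.62 in zone 3. At dpc16 Pdgfrb measured 2.17, 2.37 and 4.89 FPKM in zone 1, 1.63, 1.68 and 5.70 in zone 2 and 1.44, 1.65 and 6.98 in zone 3. In each of the 6 groups that hold a library with Y-linked RNA, that library had the highest Pdgfrb of its group, and the highest of all was NP zone 1 replicate 1.

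Pdgfrb was at 3.20 to 21.0 FPKM, with a median of 9.57, in the 6 libraries with Y-linked RNA and at 1.07 to 5.95, with a median of 2.08, in the other 21. Zone 1 minus zone 3 over the mean of stages was 0.99 ± 0.36 in log2(FPKM + 1) and did not pass (adjusted p = 0.131). Without the 6 libraries it was 0.84 and passed (adjusted p = 0.0125), and with the mean of the smooth muscle list as a covariate it was 0.80 and passed as well (adjusted p = 0.0113). The smooth muscle list had a median of 2.37 over the zone 1 libraries (1.21 to 5.53) and of 1.23 over those of zone 3 (0.902 to 5.27). No stage comparison of Pdgfrb passed, and the 95% interval of dpc16 minus NP in zone 1 was wide, from -2.48 to 0.10. By group mean Pdgfrb ran NP zone 1, dpc8 zone 1, dpc8 zone 2, dpc16 zone 3, dpc16 zone 1, dpc16 zone 2, NP zone 2, NP zone 3 and dpc8 zone 3, with no neighbours apart by more than their SDs.

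Des encodes desmin, the intermediate filament of muscle, which rodent stellate cells also contain, and is on chr1:75360329-75368579 (plus strand). In NP livers Des was at 3.52, 3.72 and 1.97 FPKM in zone 1, 2.66, 2.51 and 0.446 in zone 2 and 3.42, 4.25 and 1.72 in zone 3. At dpc8 Des was at 8.17, 3.96 and 3.02 FPKM in zone 1, 2.97, 0.732 and 1.62 in zone 2 and 1.51, 2.02 and 1.45 in zone 3. At dpc16 Des was at 1.46, 2.51 and 5.39 FPKM in zone 1, 3.07, 2.87 and 16.2 in zone 2 and 1.08, 1.71 and 5.97 in zone 3. The 3 highest values were in libraries with Y-linked RNA, and another of these, dpc8 zone 2 replicate 2, was at 0.732 FPKM. Des was at 0.732 to 16.2 FPKM in the 6 libraries and at 0.446 to 5.39 in the other 21. None of its comparisons passed. The largest was dpc16 minus dpc8 in zone 2, at 1.30 ± 0.55 (adjusted p = 0.319), and without the 6 libraries it was 0.30 (adjusted p = 0.824). By group mean Des ran dpc16 zone 2, dpc8 zone 1, NP zone 3, dpc16 zone 1, NP zone 1, dpc16 zone 3, NP zone 2, dpc8 zone 2 and dpc8 zone 3, with no neighbours apart by more than their SDs.

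**Figure D4:**
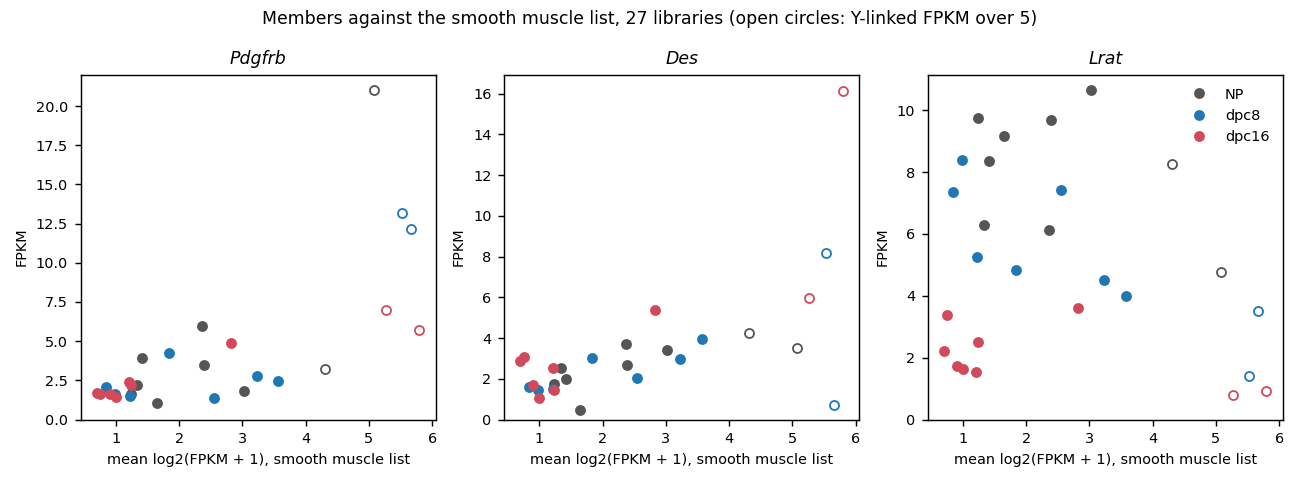
FPKM of Pdgfrb, Des and Lrat (vertical axes, linear and starting at 0) against the mean log2(FPKM + 1) of the smooth muscle list (horizontal axes) in the 27 libraries; open circles are the 6 libraries with a Y-linked sum over 5 FPKM. The open circles are all at 4.31 or more on the horizontal axis, Pdgfrb reaches 21.0 FPKM only among them, and Lrat reaches its highest value, 10.7 FPKM, in a library that is not among them.

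Rgs5, a regulator of G protein signalling found in pericytes, is on chr1:169655501-169695813 (plus strand) and had the smallest ratio of highest to lowest value among the 9 genes, at 3.56. It ran from 5.26 to 18.8 FPKM, with a median of 12.0 in zone 1, 11.2 in zone 2 and 10.9 in zone 3, and of 11.5 in NP, 10.8 at dpc8 and 12.0 at dpc16. Zone 1 minus zone 3 over the mean of stages was 0.05 ± 0.17 (95% interval -0.31 to 0.41, adjusted p = 0.932). No comparison of Rgs5 passed, with or without the Y-linked libraries, and the largest was dpc16 minus dpc8 in zone 1 (0.73 ± 0.30, adjusted p = 0.267). Its group means ran NP zone 2, dpc16 zone 1, NP zone 1, dpc8 zone 2, dpc16 zone 3, dpc8 zone 3, dpc16 zone 2, NP zone 3 and dpc8 zone 1, and the highest was 1.92 times the lowest, with no neighbours apart by more than their SDs. In the 6 libraries with Y-linked RNA Rgs5 had a median of 9.34 FPKM against 11.3 in the others, so it did not share the high values of Pdgfrb there.

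As a group, the 9 genes did not move together between zones. Between zones 1 and 3 over the mean of stages, 3 were lower in zone 1 (Dcn, Reln and Ecm1), 1 was higher (Ngfr) and 5 did not pass, where 5.59% of all genes tested were called. The median log2 difference was 0.05 over the members and 0.04 over all genes. Within stages 0 of 9 were called by limma in NP (1.34% of all genes; 4 of 9 at an unadjusted p under 0.05), 1 at dpc8 (1.61%) and 0 at dpc16 (1.55%; 1 of 9 unadjusted). Between zones 1 and 2 limma called 0 of 9 (0.919% of all genes; 2 unadjusted), and between zones 2 and 3 it called 1, Ngfr (1.88%).

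Between dpc8 and NP limma called 0 of 9 in zone 1 (0.0309% of all genes; 2 unadjusted), 0 in zone 2 (0.00772%; 1 unadjusted) and 0 in zone 3 (0.0154%; 0 unadjusted). The log2 difference was negative in 8 of 9 members in zone 1, in 8 of 9 in zone 2 and in 6 of 9 in zone 3, with medians of -0.51, -0.65 and -0.26, against 0.01, 0.00 and -0.03 over all genes. None of these members passed, and they share the NP libraries within each zone with the next comparison.

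Between dpc16 and NP 0 of 9 were called in zone 1 (1.37% of all genes; 1 unadjusted), 1 in zone 2 (2.66%) and 1 in zone 3 (1.32%), which was Lrat both times. The medians over the members were -0.19, -0.58 and -0.23, against -0.05, 0.04 and 0.02 over all genes. Between dpc16 and dpc8 0 of 9 were called in zone 1 (2.01% of all genes; 1 unadjusted) and 0 in zone 2 (1.51%; 2 unadjusted), and 1, Lrat, was called in zone 3 (1.37%). For the change with pregnancy set between zones, limma called 0 of 9 in each of 6 interaction terms. For dpc8 against NP the share of all genes was 0% in each, and for dpc16 against NP it was 0.054% for zones 1 and 3, 0% for zones 1 and 2 and 0.0154% for zones 2 and 3. At an unadjusted p under 0.05, Lrat stood alone in the first and Rgs5 in the second of these dpc16 terms.

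**Figure D5:**
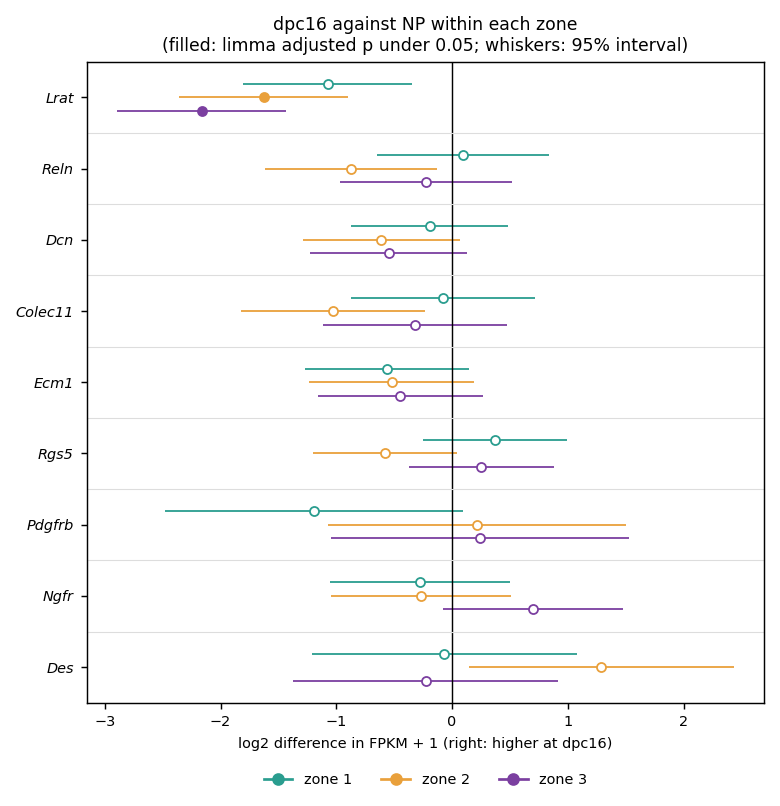
Log2 difference in FPKM + 1 between dpc16 and NP for each gene (horizontal axis; positive is higher at dpc16) in zones 1, 2 and 3, n = 3 and 3 libraries in each. Points are limma estimates, whiskers are 95% intervals, and filled points passed an adjusted p of 0.05. Lrat in zones 2 and 3, at -1.63 and -2.16, holds the only filled points.

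Other stellate genes were read from lists. Of 16 further stellate genes, such as Hgf, Hand2 and Cxcl12, all passed the filter and 2 were called between zones 1 and 3 over the mean of stages, where 5.59% of all genes were. Gdf2, the ligand BMP9, was lower in zone 1 (-0.65 ± 0.17, adjusted p = 0.0189) and Sod3, an extracellular superoxide dismutase, was higher (0.64 ± 0.17, adjusted p = 0.027), and the list median was -0.22 against 0.04 over all genes. In the other 14 comparisons between zones or stages limma called 0 of the 16 (0 to 5 at an unadjusted p under 0.05), against 0.00772% to 2.66% of all genes. The list median in zone 3 between dpc16 and NP was -0.27 against 0.02 over all genes.

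Among 4 stellate genes known from the portal side, Ngfr and Igfbp3 were higher in zone 1 than in zone 3 over the mean of stages, Igfbp3 by 1 ± 0.25 (adjusted p = 0.0163). Itgb3 and Il34 did not pass there, and 5.59% of all genes were called. Among 3 genes of the central side, Rspo3, a secreted enhancer of Wnt signalling, was lower in zone 1 in NP (-1.65, adjusted p = 0.00566), at dpc8 (-1.74, adjusted p = 0.00326) and at dpc16 (-2.27, adjusted p = 0.000107). Rspo3 thus differed in the direction of Dcn at each stage, with a zone 3 mean of 4.62 to 5.33 FPKM and a zone 1 mean of 0.283 to 1.02. Adamtsl2 was lower in zone 2 than in zone 3 over the mean of stages (-1.56, adjusted p = 0.0156). Between zones 1 and 3 it did not pass, and its zone 1 mean was above that of zone 3 in NP (7.38 and 4.08 FPKM) and at dpc8 (4.17 and 2.54) and below it at dpc16 (2.63 and 9.53), unlike Rspo3. Spon2 did not pass. These are whole-tissue values, and which cells held the RNA of these genes was not tested.

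The other genes of retinoid handling were set beside Lrat. Of 14 tested, 0 were higher and 3 were lower in zone 1 than in zone 3 over the mean of stages (5.59% of all genes called). These were Aldh1a1, a retinaldehyde dehydrogenase (-1.88, adjusted p = 5e-05), Cyp26a1, which degrades retinoic acid (-1.96, adjusted p = 0.00323), and Rarb, a retinoic acid receptor (-0.71, adjusted p = 0.0108), whose call was lost without the Y-linked libraries (adjusted p = 0.0734). Between dpc16 and NP, Ttr, the plasma carrier that pairs with retinol-binding protein, was lower in zone 2 (-1.94, adjusted p = 0.00559) and zone 3 (-1.53, adjusted p = 0.0462). Dhrs3, which reduces retinaldehyde to retinol, was lower in zone 2 (-1.94, adjusted p = 0.0124). The list medians for zones 2 and 3 were -0.34 and 0.05, against 0.04 and 0.02 over all genes.

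For the pathway of Reln, the receptor Vldlr was lower in zone 1 than in zone 3 by a log2 difference of -2.19 ± 0.31 over the mean of stages (adjusted p = 3.98e-05), in the direction of Reln itself. The adaptor Dab1 was listed at 0 FPKM in 15 of 27 libraries and passed the filter through 3 libraries of zone 1 alone, so that its means of 0.817 FPKM in zone 1 and 0.0096 in zone 3 are given as levels with no test. Lrp8, Src and Fyn did not pass. Among the small leucine-rich proteoglycans, Lum was lower in zone 1, like Dcn (-0.78 ± 0.16, adjusted p = 0.00359). Fmod, which reached 1 FPKM in 7 libraries of zone 1 and 0 of zone 3, was at a higher level in zone 1. The other 4 of 7 tested did not pass between zones 1 and 3 over the mean of stages, where 5.59% of all genes were called.

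For the neurotrophins and their receptors, the co-receptor Sort1 was lower in zone 1 than in zone 3 over the mean of stages (-0.72 ± 0.19, adjusted p = 0.0265), opposite to Ngfr. The other 6 of 8 genes did not pass there, and 5.59% of all genes were called. Of 6 PDGF ligands and receptors limma called 0 between zones, where it called 0.919% to 5.59% of all genes. The ligand Pdgfa was higher at dpc16 than in NP in zone 2 (2.15 ± 0.47, adjusted p = 0.0118) and than at dpc8 in zone 3 (2.47 ± 0.47, adjusted p = 0.00615). In these comparisons 2.66% and 1.37% of all genes were called, and Pdgfrb did not pass. Of 7 collectins and associated proteases 1 was called between zones 1 and 3 over the mean of stages, where 5.59% of all genes were. This was Mbl1, which was lower in zone 1 (-0.92 ± 0.26, adjusted p = 0.0372). In the other 14 comparisons limma called 0 of the 7.

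In the 15 comparisons between zones or stages limma called 0.00772% to 5.59% of all genes. It called 0 of 14 genes of activated stellate cells and myofibroblasts, such as Acta2, Col1a1 and Timp1, and 0 of 9 smooth muscle genes in all 15 (0, and 0 to 1, at an unadjusted p under 0.05). Their list medians reached 2.23 and 2.14 between zones 1 and 3 at dpc8, where zone 1 holds a library with Y-linked RNA and zone 3 holds none. Of the sinusoidal endothelial genes 0 of 8 were called in any of the 15 (0 to 3 unadjusted). Of the biliary genes, Spp1 (4.28 ± 0.87, adjusted p = 0.00285) and Sox9 (1.99 ± 0.23, adjusted p = 1.77e-06) were higher in zone 1 than in zone 3 over the mean of stages. Epcam and Cldn7 passed the filter through zone 1 and are given as levels with no test, at means of 3.35 and 2.16 FPKM in zone 1 and 0.532 and 0.325 in zone 3. The part of biliary RNA in the zone differences of the members was not tested.

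Kupffer cells, the resident macrophages of the sinusoid, and portal fibroblasts were read in the same way. Over the mean of stages 4 of 8 Kupffer genes were higher in zone 2 than in zone 3, as was Ngfr, against 1.88% of all genes called, and these were Clec4f (1.32, adjusted p = 0.000384), Cd5l (1.14, adjusted p = 0.0069), Timd4 (0.90, adjusted p = 0.0186) and Marco (1.37, adjusted p = 0.0281). The list median was 0.98 against 0.03 over all genes, and between zones 1 and 3 Clec4f alone passed (0.74, adjusted p = 0.0338). In zone 3, where Lrat was lower at dpc16 than at dpc8, 3 of 8 Kupffer genes were lower as well, against 1.37% of all genes called, with Clec4f at -1.66 (adjusted p = 0.0162), Cd5l at -2.00 (adjusted p = 0.0104) and C1qa at -1.78 (adjusted p = 0.0237). Between dpc16 and NP 1 of 8 was called, Clec4f in zone 2 (-1.32, adjusted p = 0.0473), against 2.66% of all genes. This call was lost without the Y-linked libraries (adjusted p = 0.0549).

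Of 9 genes of portal fibroblasts and mesothelium, 1 was called with stage, where the comparisons of stages called 0.00772% to 2.66% of all genes. Gas1, a growth arrest gene of fibroblasts, was lower at dpc16 than in NP in zone 1 (-1.96, adjusted p = 0.001), zone 2 (-1.90, adjusted p = 0.00117) and zone 3 (-1.91, adjusted p = 0.00126), and than at dpc8 in all 3 zones (-1.63 to -2.36). Between zones Dpt was higher in zone 1 than in zone 2 (1.68, adjusted p = 0.0293), where 0.919% of all genes were called. Eln, which passed the filter through zone 1, had means of 1.395 and 0.122 FPKM in zones 1 and 2, given with no test. Between zones 1 and 3 over the mean of stages limma called 0 of 9 (2 unadjusted), against 5.59% of all genes. The part of these cells in the differences of Lrat and Ngfr was not tested.

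Across the 27 libraries, which share composition and depth within each library, the members did not form a common pattern. The Pearson correlation of log2(FPKM + 1) was highest between Dcn and Reln (0.719) and was 0.586 between Ecm1 and Reln and 0.569 between Dcn and Ecm1. In the 21 libraries other than the Y-linked ones these were 0.779, 0.823 and 0.82. Lrat correlated with Dcn at 0.544 (0.347 in the 21 libraries) and with Reln at 0.375 (0.304). Ngfr was at -0.59 with both Dcn (-0.646) and Reln (-0.608), and Pdgfrb was at -0.673 with Dcn (-0.649) and 0.467 with Des (0.661). These are descriptions of libraries that fall into zones and stages, with no test.

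The tested genes most like each member over the 27 libraries were named by the same correlation. For Lrat they were Hebp1 (0.923), Ttr (0.914) and Rarres2 (0.897), and in the 21 libraries other than the Y-linked ones the values were 0.907, 0.896 and 0.865. For Dcn they were Abcc9 (0.923), Cdo1 (0.92) and Il1rap (0.879), and for Reln they were Enpp1 (0.811), Ppara (0.792) and Gdf2 (0.783). For Ecm1 they were Nr1i3 (0.728), Gdf2 (0.718) and Ntn1 (0.717), so that Gdf2 stood beside both Reln and Ecm1.

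Ngfr was most like Pop1 (0.767), Tiam2 (0.742) and Mycbp2 (0.74), and Colec11 was most like Agt (0.816), Mavs (0.796) and Slfn5 (0.796). Rgs5 was most like 3830406C13Rik (0.762), Zfp109 (0.722) and Dnajc28 (0.713). For Pdgfrb the likest genes, Map1a (0.924), Sptbn1 (0.924) and Epdr1 (0.922), were at 0.696, 0.736 and 0.741 without the 6 libraries. For Des, Apcdd1 (0.811), Ssbp2 (0.797) and Pcdhga11 (0.791) were at 0.52, 0.664 and 0.613 without them.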

How the data were processed

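The authors prepared ribosomal RNA-depleted libraries from 50 ng of RNA (RIN over 7, areas of 2 mm2), trimmed reads with cutadapt, mapped them to mm10 (HISAT2 2.1.0), retained unique alignments and obtained FPKM for GENCODE coding genes from Cuffdiff (Cufflinks 2.2.1), per the labels and the study's methods. The deposited FPKM values carry no further stated scaling, and the table gives no counts. Depth and reads per gene were estimated from the steps between low values, on which 93.7% to 98.0% of the values examined lay within a tolerance of 0.15, so they are approximate and no interval was computed from them. Strandedness of the counting was not given in the sources used here, so reads of overlapping antisense genes cannot be told apart.

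The log2(FPKM + 1) values were fitted in limma 3.58.1 (R 4.3.3) with a mean for each of 9 groups of 3 libraries, after a filter of FPKM at least 1 in at least 3 of 27 libraries, which 12952 of 21823 genes passed. Tests were two-sided, the Benjamini-Hochberg adjustment ran over all 12952 genes within each comparison, and 0.05 was the threshold. Differences are log2 with SE, and levels are FPKM with SD. On the log2(FPKM + 1) scale the change of weakly expressed genes is understated. Limma was used because the values are not counts. The members, gene lists and alternatives were chosen with earlier results of these data known, and all 9 members are named, with the 3 genes most like each by Pearson correlation. Same-numbered libraries of different zones at dpc16 deviated together from their group means, with correlations of 0.263 to 0.863 in 9 of 9 pairs. Pairs with different numbers ran from -0.758 to 0.593, with 4 of 18 over 0.1. Replicate 3 of zones 2 and 3 at dpc16 are both Y-linked libraries, and the part of this in the correlations was not tested. Pairing at dpc16 is therefore possible but not shown. In NP 4 of 9 and at dpc8 5 of 9 same-numbered pairs were over 0.1, with medians of 0.013 and 0.29, against 0.004 and -0.116 for different numbers. This left pairing in these stages unclear. Gene positions are from GENCODE vM21 on mm10, and promoter windows from RefSeq on GRCm38.p6. Alternatives were another pseudocount, other filters, quantile normalization, fits of the compared groups alone, array weights, a replicate block, a smooth muscle covariate, and leaving out the libraries with Y-linked FPKM or each library in turn. A result for 1 gene of the lists is not reported here.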

Additional observations from a re-analysis of the deposited data

How the results depend on the processing

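The counts of members called over the mean of stages between zones 1 and 3 stayed within 1.5 times under the alternatives tried, and none of the members' differences that passed in the reported fit or under a planned setting changed sign. Of all 135 differences of the members, 11 changed sign without the Y-linked libraries, none of which passed in either fit. The percentages are the shares of all genes tested that were called in the same fit. With quantile normalization Ecm1 did not pass there (-0.62, adjusted p = 0.0854). The precision is limited by 3 libraries a group and, for Ngfr, by few reads in zone 3. The causes of the changes below were not tested.

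Of the 9 members, between zones 1 and 3 in NP (0 called; 1.34%) 1 passed with a pseudocount of 0.1 (Ngfr; 1.28%), 2 with array weights (2.09%), 1 without the Y-linked libraries (Dcn; 1.81%) and 3 with the smooth muscle covariate (2.49%). At dpc8 (1 called; 1.61%) 3 passed with array weights (6.6%) and 2 without the Y-linked libraries (2.76%), and leaving out 1 library gave 0 to 1, with 0 without dpc8 zone 1 replicate 1. At dpc16 (0 called; 1.55%) 1 passed, Dcn, with array weights (3.83%), with the covariate (2.69%) and without the Y-linked libraries (2.71%). Between zones 1 and 2 (0 called; 0.919%) 2 passed with array weights (1.82%), 1 with the covariate (1.53%) and 1 without the Y-linked libraries (1.51%), and leaving out 1 library gave 0 to 1, with 1 without dpc16 zone 2 replicate 3. Between zones 2 and 3 (1 called; 1.88%) 0 passed with quantile normalization (1.63%) and with the compared groups alone (1.67%), and 2 with array weights (4.81%), the covariate (3.4%) and without the Y-linked libraries (3.06%), while leaving out 1 library gave 0 to 2, with 2 without dpc16 zone 2 replicate 1 or dpc16 zone 3 replicate 3.

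For dpc16 against NP in zone 1 (0 called; 1.37%) 1 passed, Lrat, with array weights (5.15%), with the covariate (2.9%) and without the Y-linked libraries (2.92%). In zone 2 (1 called; 2.66%) 0 passed with quantile normalization (2.57%) and with the compared groups alone (0.131%), and leaving out 1 library gave 0 to 1. For dpc16 against dpc8, 2 passed in zone 2 with the covariate (Lrat and Des; 6.03%, against 0 and 1.51% without it), and in zone 3 (1 called; 1.37%) 0 passed with quantile normalization (1.25%) and leaving out 1 library gave 0 to 1.

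With the replicate block, which is a pairing of zones by replicate number within each stage, 0 members were called between zones 1 and 3 at dpc16, as without it, with Dcn at an adjusted p of 0.0854. In NP and at dpc8, where the correlations left pairing by number unclear, 2 members passed with the block in each stage, Dcn and Ngfr (2.18% and 3.54% of all genes). Over the mean of stages 2 passed between zones 2 and 3 (3.2%), and the block changed no other call of a member.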
